A study of Mus musculus with 4 samples.

Results

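Long domains of histone H3 trimethylated at lysine 27 (H3K27me3) in mouse embryonic fibroblasts (MEF) are described here. They were found in 5 kb bins of the autosomes of mouse build mm8. The level of a bin, called fold below, was its read count divided by the library's mean over autosomal bins with at least 1 read among the 4 libraries. Adjacent bins with H3K27me3 of 2-fold or more were joined, and runs of 10 or more bins, or 50 kb, were kept. This gave 761 domains among 19220 runs of any length, and they held 12912 of 465838 autosomal bins (2.77%). Because H3K27me3 in MEF chose the domains, its values in them are a description. With the library mean taken over all chromosomes, X and Y included, the same rule gave 872 domains, and all 12912 bins were among theirs. When H3K27me3 also had to reach 2-fold over the mean of the other MEF marks, 225 domains were left, so the number depends on the background chosen.

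The data were 4 chromatin immunoprecipitation sequencing libraries, 1 in each group. MEF are connective tissue cells cultured from embryos. They were profiled for H3K4me3, H3K27me3 and H3K9me3 after growth in DMEM with 10% FBS; no strain, age or treatment was given for them. H3K9me3 was also profiled in secondary MEF, which came from chimeric embryos at 13.5 dpc made by injecting induced pluripotent stem cells into BDF2 blastocysts, and which carry inducible Oct4, Klf4 and Sox2 and an Oct4-selectable cassette; the injected cells had been derived in Wnt3a-conditioned medium. A selection with 2 µg/ml puromycin for 48 hours kept the fibroblasts that descend from the injected line. They were grown in 10% cosmic calf serum. The antibody lot was the same for both H3K9me3 libraries, but their flow cells differed. No expression data were used here, so the cells were not checked against marker genes. The libraries held 7852786 to 12027212 autosomal reads with 1 location. With 1 library a group, comparisons are between libraries, and all intervals, at the 95% level unless stated, cover counting error only.

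Polycomb repressive complex 2 deposits H3K27me3, which is found at genes that are held silent through development. Polycomb repressive complex 1 binds it, and the mark can spread from sites of recruitment, often CpG islands, over neighbouring chromatin. Promoters that carry H3K27me3 together with H3K4me3, the mark of active and poised promoters, are called bivalent. H3K9me3 marks heterochromatin and is laid down by other enzymes. Domains are named by position, because gene annotation and genome sequence on mm8 were not used here.

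The typical long domain was little longer than the minimum. The median length was 70 kb, the middle 50% of domains spanned 55 to 95 kb, 190 domains reached 100 kb, and 18 (2.37%) reached 200 kb. Mean H3K27me3 per domain ranged from 2.56-fold to 19.4-fold with a median of 4.17-fold, and the highest bin of a domain had a median of 8.67-fold. The domains held 13.1% of the H3K27me3 reads on 2.77% of the bins. Level and length went together weakly: domains of 50 to 70 kb had a median of 3.90-fold and those of 150 kb or more 5.11-fold. At 1 kb resolution, where the library mean was only 4.42 reads, a median of 81.8% of the 1 kb bins of a domain reached 2-fold, and the longest unbroken stretch had a median of 19 kb. The cover seen in 5 kb bins thus had gaps at finer scale, where counting error was also larger.

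**Figure D1:**
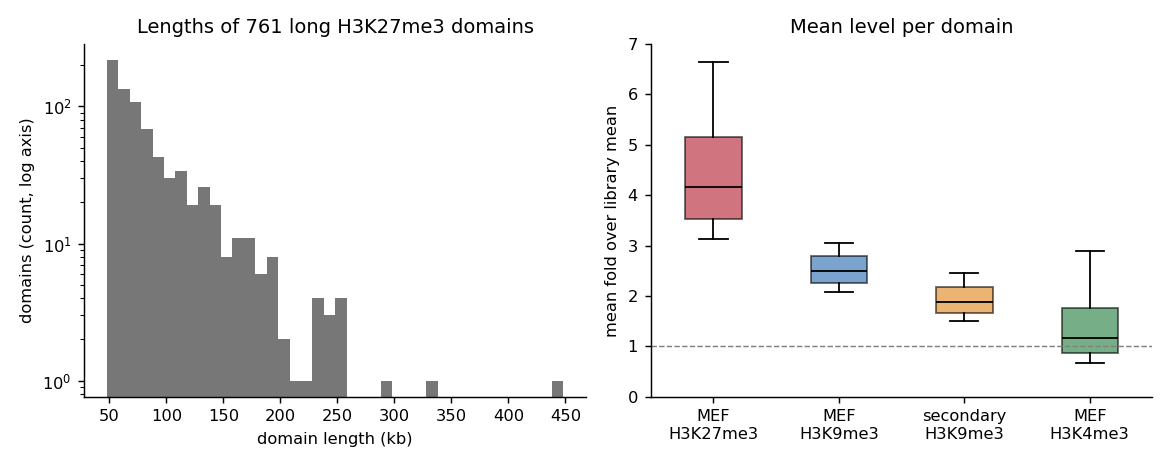
Left, number of domains (log axis) by length in kb. Right, mean fold per domain in each library, with the median as a line, the box from the 25th to the 75th percentile and whiskers from the 10th to the 90th percentile; the dashed line is the library mean. The median was 4.17-fold for H3K27me3, 2.49-fold for MEF H3K9me3, 1.89-fold for secondary MEF H3K9me3 and 1.17-fold for H3K4me3.

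Runs just inside and just outside the length rule had similar medians. The 114 runs of 10 bins had a median H3K27me3 of 3.82-fold and the 193 runs of 9 bins 3.80-fold. H3K4me3 had medians of 1.15-fold and 1.21-fold in them. An internal H3K4me3 peak was present in 61.4% and 60.6%.

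At 440 kb, the longest domain lay on chromosome 8 between 123565001 and 124005000. Its means were 7.07-fold H3K27me3, 2.18-fold H3K4me3, 3.38-fold MEF H3K9me3 and 2.25-fold secondary MEF H3K9me3, and its highest H3K27me3 bin reached 21.3-fold. On its left side H3K27me3 stood at 4.24-fold in the first bin and 1.56-fold in the bin outside. On its right side the bin outside, at 1.95-fold, missed the threshold narrowly, and the next stood at 3.80-fold again. With every gap of 1 bin under the threshold filled, this domain became part of a stretch of 725 kb that ended at 124290000. That stretch held 8 bins under 2-fold. Its strongest H3K4me3 peak, at 118-fold from 123992001 to 123995000, lay near that right edge, and the summit bin there had 2.71-fold H3K27me3.

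The second longest domain, 335 kb of chromosome 4 from 147480001 to 147815000, had means of 6.48-fold H3K27me3, 1.22-fold H3K4me3, 2.83-fold MEF H3K9me3 and 1.72-fold secondary MEF H3K9me3. It held 3 H3K4me3 peaks, of which the strongest, 31.3-fold from 147647001 to 147651000, stood in 16.0-fold H3K27me3. The next longest, 290 kb of chromosome 9 from 60755001 to 61045000, was flatter. H3K27me3 there had a mean of 3.62-fold and never passed 6.19-fold, beside 0.909-fold H3K4me3, 2.58-fold MEF H3K9me3 and 1.97-fold secondary MEF H3K9me3. The other 7 of the 10 longest measured 240 to 255 kb. They lay on chromosome 5 (122120001 to 122375000 and 111710001 to 111950000), chromosome 15 (78380001 to 78635000 and 101155001 to 101405000), chromosome 19 (44650001 to 44905000), chromosome 2 (164725001 to 164970000) and chromosome 9 (56370001 to 56615000). Among these 7 the domain on chromosome 2 had the highest H3K27me3, at 8.04-fold, with 1.42-fold H3K4me3, 3.17-fold MEF H3K9me3 and 1.92-fold secondary MEF H3K9me3. All 10 stood lower in the secondary H3K9me3 library than in the MEF library.

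Some domains held positions that were high in every library. A bin at 5-fold or more in all 4 libraries was present in 11 domains (1.45%). The most extreme was chromosome 11 from 3025001 to 3100000, where H3K27me3 stood at 19.4-fold, H3K4me3 at 13.5-fold, MEF H3K9me3 at 38.1-fold and secondary MEF H3K9me3 at 42.8-fold. It was the domain nearest to the first mapped bin of an autosome. All marks were high there, H3K9me3 most of all. Outside it, the highest mean H3K27me3 was 11.8-fold, on chromosome 2 from 31445001 to 31495000, with 2.85-fold H3K4me3, 4.20-fold MEF H3K9me3 and 2.85-fold secondary MEF H3K9me3. Chromosome 7 from 45030001 to 45085000 followed at 10.2-fold, with 3.94-fold H3K4me3. Chromosome 3 from 88275001 to 88350000 and chromosome 11 from 98100001 to 98175000 both stood at 10.0-fold, with 1.91-fold and 3.82-fold H3K4me3.

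Reads with 2 locations were rarer in the domains than elsewhere. In the H3K27me3 library their positions came to 1.56% of the 1-location reads in long domains, 2.76% in runs of 1 to 9 bins (short runs) and 6.80% in bins under 2-fold. The other 3 libraries kept that order. Of the 1-location H3K27me3 reads in domains, 92.7% were at distinct positions, against 94.5% in bins under 2-fold.

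Most long domains contained H3K4me3 peaks. Mean H3K4me3 over all domain bins was 1.51-fold, the median domain stood at 1.17-fold, and 138 domains (18.1%) reached 2-fold, against 15.1% of 50 kb windows. A peak was a run of adjacent 1 kb bins at 5-fold or more of the H3K4me3 mean. Of the 761 domains, 565 (74.2%, exact binomial interval 71.0% to 77.3%) held at least 1 peak, and 1363 peaks lay in them in all. Among domains of exactly 50 kb the share was 61.4% (70 of 114), beside 28.5% of all 50 kb windows of the autosomes. The peak density was 2.11 per 100 kb (2.00 to 2.23), against 0.925 over all autosomal bins and 3.65 (3.57 to 3.74) in short runs. Long domains were thus denser in peaks than the genome and less dense than shorter H3K27me3 runs, by more than counting error. The comparison with short runs rests on parts of the same library.

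The peaks inside long domains were low and narrow. Their median height was 10.1-fold, against 17.2-fold in short runs and 30.5-fold in bins under 2-fold H3K27me3. Peaks of 20-fold or more made up 23.8%, 46.4% and 56.1% of these sets. A width of 1 kb was seen in 58.0% of the peaks in long domains, 41.6% in short runs and 38.1% in bins under 2-fold. Within the domains, 15.1% of peaks (13.3% to 17.1%) lay within 5 kb of an edge, where 11.8% of the domain length lies.

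H3K27me3 was highest where the internal H3K4me3 peaks were. Averaged over the 1363 peaks, H3K27me3 stood at 10.9-fold in the summit bin, 7.49-fold 1 kb to the right, 4.89-fold at 5 kb and 4.37-fold at 10 kb. The rise did not follow peak height: H3K27me3 at the summit was 9.75-fold for the 673 peaks of 5 to 10-fold, 13.7-fold for the 366 of 10 to 20-fold and 10.1-fold for the 324 of 20-fold or more. Both H3K9me3 libraries were raised at these summits too, at 4.33-fold for MEF and 4.14-fold for the secondary cells, against 2.58-fold and 2.11-fold at 10 kb. These means include peaks in bins high in all 4 libraries, without which 1342 peaks were left. The chromosome 11 domain from 3025001 to 3100000, with mean H3K9me3 of 38.1-fold and 42.8-fold, held 10 of the peaks. The part of such sites in the means was not tested. Peaks in bins under 2-fold also carried more H3K27me3 at the summit (1.90-fold) than 10 kb away (1.14-fold). An input library was not used here, so the part of a general gain of reads at such sites was not tested. In 383 domains (50.3%) the highest H3K27me3 bin had H3K4me3 of 2-fold or more, while in 178 (23.4%) it had less than 1-fold. High H3K4me3 was rarer over all 12912 domain bins, of which 1140 had 2 to 5-fold and 572 had 5-fold or more. Low H3K4me3 was more common over them, with 2055 bins under 0.5-fold and 6046 bins at 0.5 to 1-fold.

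**Figure D2:**
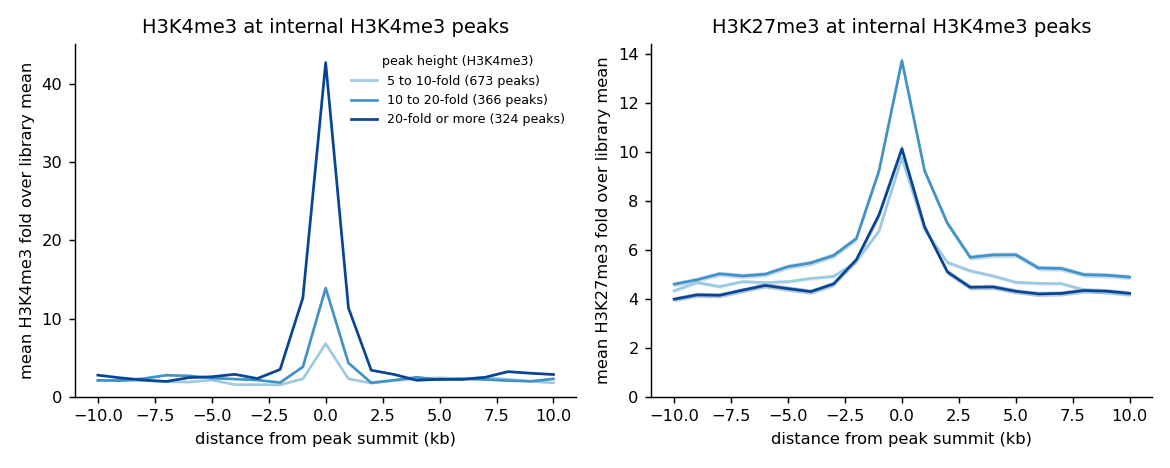
Mean fold over the library mean in 1 kb bins (vertical axes) by distance in kb from the summit of H3K4me3 peaks inside long domains, for H3K4me3 on the left and H3K27me3 on the right; shaded bands are 95% Poisson intervals. The H3K27me3 summit was highest, at 13.7-fold, for peaks of middle height.

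The domains with the most internal peaks had high mean H3K4me3 as well. Chromosome 2 from 74440001 to 74570000 held 18 peaks, with 8.31-fold H3K27me3, 4.65-fold H3K4me3, 3.19-fold MEF H3K9me3 and 2.76-fold secondary MEF H3K9me3. Chromosome 6 from 52075001 to 52260000 also held 18, with 7.53-fold, 7.92-fold, 3.02-fold and 3.08-fold in the same order, and it contained a bin high in all 4 libraries. Chromosome 15 from 102720001 to 102905000 held 17 peaks at 7.42-fold H3K27me3 and 3.63-fold H3K4me3. Chromosome 11 from 96065001 to 96200000 held 12 peaks at 9.35-fold H3K27me3 and 5.80-fold H3K4me3. The fifth, chromosome 11 from 118850001 to 118980000, held 11 peaks and a bin high in all 4 libraries. The Hox gene clusters, classic Polycomb targets that encode developmental transcription factors, lie on chromosomes 2, 6, 11 and 15 of the mouse. Whether the leading 4 domains are those clusters was not tested, since no annotation of this build was used.

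The domain of chromosome 2 from 74440001 to 74570000 ended more sharply on the left. Its first and last bins stood at 2.63-fold and 3.17-fold, and the bins outside at 0.487-fold on the left and 1.46-fold on the right. The 18 peaks were 1 to 6 kb wide and 5.75-fold to 22.8-fold high, and H3K27me3 in their summit bins ran from 6.33-fold to 24.4-fold. All 18 summits thus lay well above the 2-fold threshold of H3K27me3. In the domain of chromosome 12 from 111840001 to 111910000, with 6 peaks, the strongest reached 58.2-fold and its summit bin had 4.07-fold H3K27me3.

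The 196 domains (25.8%) without an internal peak were shorter, lower and more even. Their median length was 60 kb against 75 kb for those with a peak, and their median H3K27me3 was 3.62-fold against 4.43-fold. The coefficient of variation among their bins had a median of 0.298 against 0.470. Their median H3K4me3 was 0.747-fold. The nearest peak lay a median of 24.8 kb outside, and in 11 of these domains it was more than 100 kb away. The longest such domain covered 215 kb of chromosome 5, from 139740001 to 139955000, at 7.0-fold H3K27me3, 0.843-fold H3K4me3, 2.97-fold MEF H3K9me3 and 2.11-fold secondary MEF H3K9me3. Its highest bin reached 19.9-fold, so a high H3K27me3 level was also seen with no H3K4me3 peak in the domain. The next 4 were on chromosome 9 (64300001 to 64475000), chromosome 8 (12355001 to 12515000), chromosome 4 (139005001 to 139155000) and chromosome 10 (59790001 to 59940000), with H3K4me3 between 0.673-fold and 0.797-fold. H3K27me3 in them ranged from 3.93-fold on chromosome 10 to 6.53-fold on chromosome 4.

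At most edges H3K27me3 stepped down only a little below the threshold of the rule. Over the 1522 edges the last bin inside had a median of 2.88-fold and the first bin outside 1.61-fold. In 926 edges (60.8%) the first outside bin was still at 1.5-fold or more, and in 181 (11.9%) it was under 1-fold. The second bin outside reached 2-fold again in 723 edges (47.5%), while over the autosomes 2.77% of bins lay in long domains and 8.03% in short runs. Both outside bins were under 1-fold in 50 edges (3.29%). From 10 to 30 kb outside an edge, mean H3K27me3 was 2.21-fold to 2.22-fold. Of 742 gaps between neighbouring domains of a chromosome, 45 (6.06%) were 1 bin of 5 kb, and 137 (18.5%) were 50 kb or less.

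Inside, H3K27me3 kept increasing for about 15 kb. Its mean was 3.03-fold in the outer 5 kb, 3.91-fold from 5 to 10 kb, 4.36-fold from 10 to 15 kb and 4.50-fold from 15 to 20 kb. The left and right edges gave 2.47-fold and 2.32-fold in the outermost kb. The highest bin of a domain was in the middle part, of 3 equal parts, in 308 domains (40.5%) and was the first or the last bin in 17 and 11. The threshold itself sets the step at the edge, so only its width and surroundings describe the data.

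H3K4me3 was highest in the surroundings and at the edges, and lowest in the interior. It stood at 1.76-fold in the first 5 kb outside, at 2.13-fold in the outer 5 kb inside, and at 1.28-fold to 1.30-fold beyond 15 kb inside. From 10 to 30 kb outside it was 1.99-fold to 2.22-fold. The density of peaks was 2.83 per 100 kb (2.46 to 3.23) in the outer 5 kb inside, 3.05 times the autosomal density, against 1.87 (1.57 to 2.20) in the first 5 kb outside. Mean H3K4me3 around the domains was thus above both their interior and the library average. A peak lay in the first outside bin at 136 edges (8.94%) and in the last inside bin at 211 (13.9%), beside 4.51% of all autosomal bins. Where the first outside bin was under 1-fold H3K27me3, a peak lay in it at 7 of 181 edges (3.87%, 1.57% to 7.81%). The rule requires the first outside bin to be under 2-fold H3K27me3, and all 4 libraries were lower there than on both sides. From 5 to 10 kb outside, H3K4me3 was 1.92-fold, MEF H3K9me3 1.68-fold and secondary MEF H3K9me3 1.53-fold. In the first 5 kb outside the H3K9me3 values were 1.49-fold and 1.37-fold. The part of the rule in the H3K4me3 step at the edge was not tested.

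**Figure D3:**
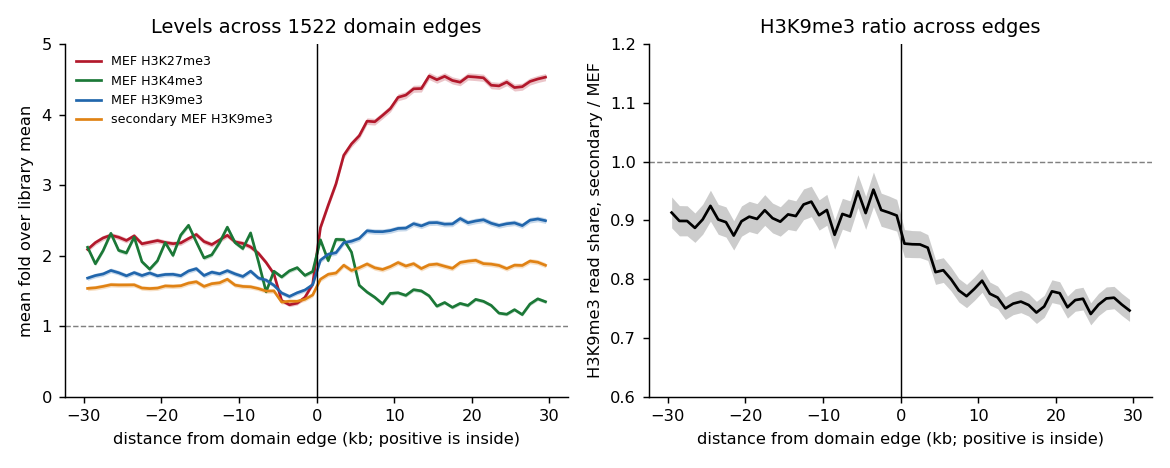
Left, mean fold over the library mean in 1 kb bins for the 4 libraries by distance in kb from the 1522 domain edges, with positive distances inside; right, the ratio of H3K9me3 read shares, secondary MEF over MEF. Bands are 95% intervals; H3K27me3 rises to 4.50-fold inside while the ratio goes from 0.920 just outside to 0.759 between 15 and 20 kb inside.

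Long domains were scarce near the first mapped bins and frequent near the distal ends. All mouse autosomes have the centromere at the end where the numbering begins, so the distal end is the telomere of the long arm. The last 10 Mb of each autosome, up to the last bin with a read, held 117 domains (15.4%, 12.9% to 18.1%) on 7.86% of the bins. The first 10 Mb held 23 (3.02%, 1.93% to 4.50%) on 7.75%. H3K4me3 peaks shared the direction to a lesser extent, with 11% of peaks in the last and 6.46% in the first 10 Mb, and so did short runs, with 11.5% and 5.59%. Among domains of 100 kb or more, 20.5% were in the last 10 Mb. The share of domains exceeded the share of bins there on 11 of 19 autosomes, so the excess was not seen on every autosome. On 5 autosomes no domain lay in the last 10 Mb.

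With each autosome divided into 10 equal parts, the shares ran from 3.02% in the first to 18.9% (16.2% to 21.9%) in the last, and only parts 7 to 10 exceeded their share of bins. The domain nearest to a distal end was on chromosome 7 from 144540001 to 144720000, 0.415 Mb from the last mapped bin. It measured 180 kb, with 5.96-fold H3K27me3, 1.30-fold H3K4me3, 2.93-fold MEF H3K9me3 and 1.92-fold secondary MEF H3K9me3.

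Domains were also unevenly spread among chromosomes. Chromosome 11 had 93 domains over 6.25% of its bins, followed by chromosome 4 (77 domains, 4.79%) and chromosome 2 (87 domains, 4.75%). Chromosome 3 had 9 domains over 0.517% of its bins and chromosome 10 had 14 over 0.852%. Bins at 2-fold or more made up 18.5% of chromosome 11, 5.06% of chromosome 3 and 6.98% of chromosome 10, so bins at this level varied less among these chromosomes than cover by long domains did. In 5 Mb windows, 295 of 503 held no domain bin, and the 38 windows with the most held 50% of all domain bins. The leading windows were chromosome 5 from 110000001 (305 bins in domains), chromosome 2 from 165000001 (299) and chromosome 8 from 120000001 (277).

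**Figure D4:**
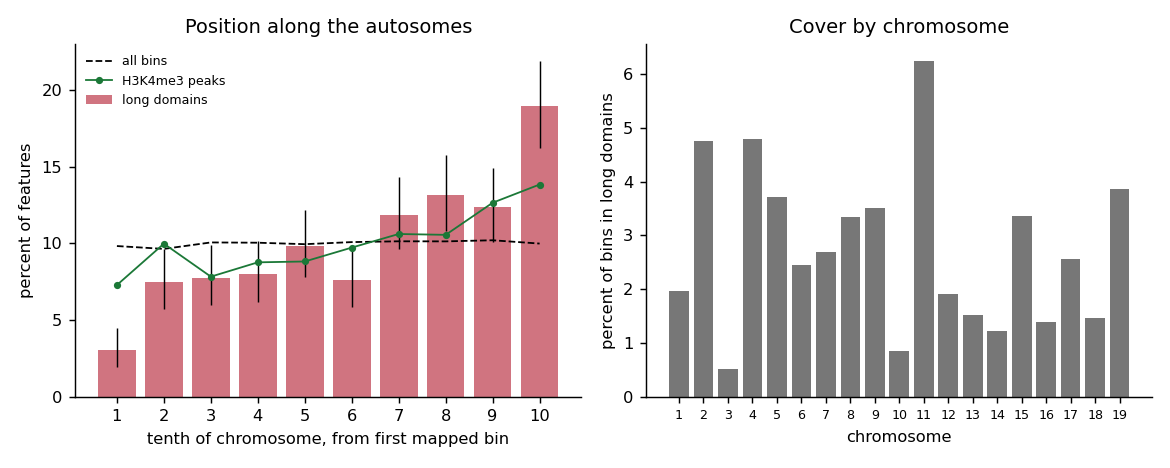
Left, percent of long domains (bars, with 95% binomial intervals), of H3K4me3 peaks (green) and of all bins (dashed) in each of 10 equal parts of the autosomes from the first mapped bin; right, percent of each chromosome's bins in long domains. The last part held 18.9% of domains, and cover ranged from 0.517% on chromosome 3 to 6.25% on chromosome 11.

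H3K9me3 reads were raised in the domains in both cell sources, less so in secondary MEF. The mean over domain bins was 2.63-fold in the MEF library and 2.01-fold in the secondary one. A domain mean of 2-fold or more was found in 717 of 761 domains (94.2%) in MEF and in 291 (38.2%) in secondary MEF. By the same rule 7.18% and 6.66% of the 50 kb windows of all autosomes reached 2-fold, and among domains of exactly 50 kb 90.4% and 29.8% did. Across the 750 domains without a bin high in all 4 libraries, mean H3K27me3 had a Spearman correlation of 0.69 with H3K9me3 of MEF and of 0.33 with that of secondary MEF. This is a description over domains, in which the MEF libraries share cells and flow cell and all libraries share the mappability of each site.

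The share of H3K9me3 reads that fell in long domains was lower in the secondary library. Domains held 7.28% of autosomal reads in MEF (634384 reads) and 5.57% in secondary MEF (437343 reads), a ratio of shares of 0.765 (0.762 to 0.768). Outside the domains the ratio was 1.02, and in short runs it was 0.870 (0.868 to 0.872). Single domains ranged from 0.477 to 1.57 with a median of 0.748, and 714 of 761 (93.8%) were under 1, beside 47.5% of 50 kb windows. A domain was called where the shares differed by 1.5-fold or more and the interval of the ratio, here a Clopper-Pearson interval with an error level of 1 in 1000, left out 1. By that rule 143 domains (18.8%) were lower in secondary MEF, against 2.68% of 50 kb windows, and 1 (0.131%) was higher, against 4.29%. Domains of exactly 50 kb, the windows' length, had 27 lower calls of 114 (23.7%). After scaling within each chromosome 93 domains were called lower, against 1.87% of windows. A difference of 1.2-fold called 566 domains lower and 6.76% of windows, and one of 2-fold called 1 domain and 0.0580% of windows. Windows were not matched to domains for reads, and an interval leaves out 1 less easily where reads are few. The library means were 18.7 MEF and 16.9 secondary H3K9me3 reads per 5 kb bin, and domain bins stood at 2.63-fold and 2.01-fold of them. The shares of windows called are thus not a like background, and the part of read number in these gaps was not tested.

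The ratios varied more than counting error gives. Outside chromosome 12 and domains with a bin high in all 4 libraries, the SD of the log2 ratio over 724 domains was 0.20, and the counting error had a root mean square of 0.089. Cell source, serum, the puromycin selection of the secondary cells and flow cell all changed together between these libraries, so their parts in the ratio cannot be told apart.

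**Figure D5:**
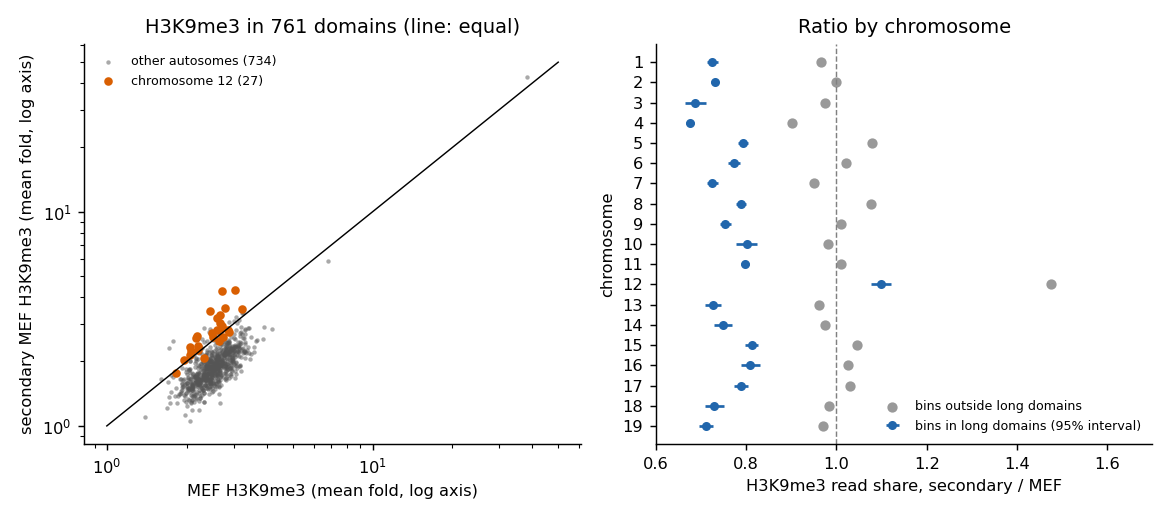
Left, mean H3K9me3 fold of each domain in MEF (horizontal) and secondary MEF (vertical) on log axes, with chromosome 12 in orange and the line of equal fold; right, the ratio of read shares by chromosome in long domains (blue, 95% intervals) and in all other bins (grey). Of the domains outside chromosome 12, 708 of 734 lie below the line, and on it 6 of 27 do; on every autosome the blue point is left of the grey one.

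Chromosome 12 stood apart in level but not in the step between domains and their chromosome. Its 27 domains had a pooled ratio of 1.10 (1.08 to 1.12), and 6 of them were under 1. The other 18 autosomes had ratios in domains of 0.754 ± 0.0427 (mean ± SD over chromosomes), from 0.676 on chromosome 4 to 0.812 on chromosome 15. Outside domains the ratio was 1.48 on chromosome 12 and 0.998 ± 0.0448 on the others. Domains over the rest of the same chromosome gave 0.744 on chromosome 12 and between 0.705 (chromosome 3) and 0.817 (chromosome 10) over all 19. Without chromosome 12 the ratio in long domains was 0.754 (0.751 to 0.757).

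The 5 lowest called ratios were all on chromosome 4. The lowest was 0.477 (0.375 to 0.603 at the error level of the call) from 45770001 to 45835000, where H3K9me3 went from 2.67-fold in MEF to 1.27-fold in the secondary cells, with H3K27me3 at 4.33-fold and H3K4me3 at 1.27-fold. The next 4, from 0.511 to 0.550, were at 35165001 to 35215000, 116960001 to 117010000, 119355001 to 119420000 and 115380001 to 115525000. In this last domain H3K9me3 stood at 3.04-fold in MEF beside 1.67-fold in the secondary cells. Of the 77 domains of chromosome 4, 38 were called lower, against 8.85% of all 50 kb windows of that chromosome and 6.61% of those without a domain bin. Here too the windows were not matched to domains for reads. The chromosome outside its domains had a ratio of 0.901, the lowest of all autosomes. The 1 domain called higher was on chromosome 12 from 111840001 to 111910000, at 1.57 (1.34 to 1.85 at that level), where H3K9me3 was 2.71-fold in MEF and 4.26-fold in the secondary cells, beside 5.26-fold H3K4me3.

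Within the domains, over bins of any H3K4me3 level, the ratio was lower at higher H3K27me3 up to 10-fold. It was higher where H3K4me3 was high. Over bins of long domains it was 0.835 (0.829 to 0.842) at 2 to 3-fold H3K27me3, 0.769 (0.764 to 0.774) at 3 to 5-fold, 0.700 (0.695 to 0.706) at 5 to 10-fold and again 0.766 (0.757 to 0.774) at 10-fold or more. Without chromosome 12 and bins high in all 4 libraries, the last 2 of these were 0.689 (0.683 to 0.694) and 0.693 (0.684 to 0.702). In the 191 domains with the lowest mean H3K27me3 the pooled ratio was 0.810 (0.803 to 0.818), and in the 190 with the highest 0.737 (0.733 to 0.742). By bins, it was 0.723 (0.719 to 0.727) where H3K4me3 was 0.5 to 1-fold, 0.837 (0.828 to 0.847) at 2 to 5-fold and 0.988 (0.975 to 1.0) at 5-fold or more. That last class includes every domain bin high in all 4 libraries. Its ratio without them is not given here, so 0.988 does not show equal shares at the remaining bins. The 57 domains with 5 or more internal peaks had a pooled ratio of 0.847 and a median of 0.795, against 0.756 and 0.732 for those with none. Leaving out domains with a bin high in all 4 libraries, a choice made after seeing the data, gave 0.801 (0.791 to 0.810) for the 53 left with 5 or more peaks, and no domain without a peak held such a bin. Across the edges the ratio was 0.920 in the first 5 kb outside, 0.848 in the outer 5 kb inside and 0.759 between 15 and 20 kb inside.

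Within the same classes of both marks, long domains and short runs had close ratios. In bins of 2 to 3-fold H3K27me3 with H3K4me3 under 1-fold, outside chromosome 12, the ratio was 0.759 (0.752 to 0.767) in long domains and 0.787 (0.784 to 0.790) in short runs. At 3 to 5-fold these ratios were 0.717 (0.712 to 0.723) and 0.725 (0.720 to 0.730), and at 5 to 10-fold 0.651 (0.644 to 0.659) and 0.657 (0.646 to 0.668). The last 2 pairs had overlapping intervals, and the first pair did not. At 10-fold or more the ratio was 0.629 (0.601 to 0.658) on 75 bins of long domains, not higher than at 5 to 10-fold. Short runs gave 0.613 (0.560 to 0.671) there on only 18 bins, and these intervals overlapped too. Mean H3K27me3 within these classes was somewhat higher in long domains than in short runs. It was 2.53-fold against 2.40-fold, 3.85-fold against 3.61-fold, 6.32-fold against 6.12-fold and 11.8-fold against 11.5-fold. Without the limit on H3K4me3, bins of 3 to 5-fold gave 0.756 in long domains and 0.807 in short runs outside chromosome 12 and bins high in all 4 libraries, where mean H3K4me3 was 1.18-fold and 2.62-fold.

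Among windows of 2 to 3-fold MEF H3K9me3, those with less H3K27me3 had higher ratios. Outside chromosome 12, 423 windows of 50 kb that lay wholly in a long domain and had 2 to 3-fold MEF H3K9me3 gave a pooled ratio of 0.737 (0.732 to 0.742). Windows with no bin in a long domain and the same range of MEF H3K9me3 gave 1.06 (1.06 to 1.07) where H3K27me3 was 1 to 2-fold (508 windows), 0.902 (0.897 to 0.906) at 2 to 3-fold (821 windows) and 0.805 (0.800 to 0.810) at 3-fold or more (516 windows). All of these sets were chosen by MEF H3K9me3, which also enters the ratio. Within the shared range their MEF H3K9me3 was not equal. Its median was 2.57-fold in the domain windows, and 2.12-fold, 2.18-fold and 2.31-fold in the other 3 sets in the order given. How much of the trend in the ratio follows from this was not tested. The levels of H3K27me3 and H3K4me3 refer to MEF throughout, since these marks were not analysed here in the secondary cells.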

How the data were processed

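The deposited values hold no level of any other kind, only read positions: per the file headers and the deposited note on the format, the authors listed signed positions of reads aligned to mm8 with Bowtie (options -e 70, -k 2, -m 2, -n 2, -l 36, --best, --concise; version not given in the sources used here), with 1-location and 2-location reads apart and no normalisation. Per the labels' protocols, chromatin averaged 500 bp, was amplified over 18 cycles and was gel-selected between 150 and 350 bp. Removal of repeated reads was not stated; 91.4% to 97.9% of autosomal reads were at distinct positions.

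One-location reads were moved 75 bp from the 5′ end towards the 3′ side, with 36 bases assumed; strand offsets gave fragments of 131 to 156 bp. The mean was 16.9 to 25.8 reads per 5 kb bin. Ratios compare shares of autosomal reads, in windows with 50 or more reads. Peaks were assigned by midpoint. Poisson and Clopper-Pearson intervals came from SciPy 1.17.1 under Python 3.11.15. The rules were run on simulated data with a flat background, planted runs and planted 2-fold differences. That setting is simpler than the real edges and ratios, so it does not measure the error of the calls made here. No test between conditions was made, since each group had 1 library.

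Members, lists and thresholds were chosen with earlier results of these data known. Named domains followed a rule: the 10 longest, the 5 highest, the 5 with most peaks, the 5 longest without a peak, the 5 lowest and 5 highest called ratios (1 was called higher), the 3 leading 5 Mb windows and the domain nearest each end; values of single peaks and of chromosomes were picked after they were seen. Alternatives covered binning, thresholds, gaps, repeated and 2-location reads, depth, background, peaks, ends and scaling. Sequences are not shown, because a genome of this build was not used here.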

Additional observations from a re-analysis of the deposited data

Results flagged for a closer look

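Reads with 2 locations lie outside the counts of the report and were present in the long domains. The H3K27me3 library had 19534 such positions there, more than the 3 that a count of 0 allows, out of 507456 on the autosomes. With them added at a weight of 0.5 the number of domains was 793.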

How the results depend on the processing

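The direction of the H3K9me3 difference held under all 17 alternatives, with the ratio between 0.703 and 0.821 against 0.765, while the number of domains, 761, followed the thresholds. The number was 1655 at 1.5-fold, 243 at 3-fold, 351 from 75 kb and 190 from 100 kb. It was 1282 with every gap of 1 bin under the threshold filled, 1297 in 10 kb bins and 341 in 2.5 kb bins. It was 225 when H3K27me3 also had to be 2-fold over the mean of the other MEF marks. In that order the share of bins was 6.49%, 0.795%, 1.75%, 1.18%, 5.45%, 5.18%, 1.15% and 0.712%. It was 2.88% with 1 read per position, 3.22% with the mean over all chromosomes, 2.87% with 2-location reads, 2.72% without domains high in all 4 libraries and 2.89% with H3K27me3 thinned.

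Domains with a peak were 77.4% at 1.5-fold, 82.1% from 75 kb, 87.9% from 100 kb, 78.1% with the gap, 78.3% in 10 kb bins and 60.0% over the other marks. Peaks of 3-fold gave 87.1%, of 10-fold 55.3%, and in 500 bp bins 80.3%. Peaks per 100 kb were 2.38 at 1.5-fold, 2.45 at 3-fold, 1.97 from 75 kb, 1.80 from 100 kb, 2.29 in 2.5 kb bins and 1.37 over the other marks, and the peak settings gave 3.51, 1.13 and 2.86. The share in the last 10 Mb was 18.5% at 3-fold, 18.2% from 75 kb, 20.5% from 100 kb and 18.2% over the other marks; the last 5 Mb held 8.02% and the last 20 Mb 26.9%.

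The ratio was 0.821 at 1.5-fold, 0.738 at 3-fold, 0.758 from 75 kb, 0.739 from 100 kb, 0.799 with the gap, 0.799 in 10 kb bins, 0.751 in 2.5 kb bins, 0.775 with the mean over all chromosomes and 0.703 over the other marks. It was 0.757 without domains high in all 4 libraries, 0.768 thinned, 0.754 without chromosome 12, 0.745 scaled in bins under 2-fold of both marks and 0.770 with scaling within each chromosome. Lower calls numbered 143 of 761 domains in the main setting, 69 of 243 at 3-fold and 65 of 351 from 75 kb. They numbered 39 of 190 from 100 kb, 78 of 341 in 2.5 kb bins and 75 of 225 over the other marks. Of the 761 domains, 93 were called lower by chromosome, 566 at a 1.2-fold difference and 1 at 2-fold. These last 3 settings called 1.87%, 6.76% and 0.0580% of 50 kb windows lower, and windows were not matched to domains for reads. Higher calls numbered 1 of 761 domains in the main setting, 11 of 1655 at 1.5-fold, 4 of 1282 with the gap and 3 of 1297 in 10 kb bins. The main setting called 4.29% of 50 kb windows higher. At a 1.2-fold difference 8 of 761 domains were called higher. The number was 0 at 3-fold, from 75 and 100 kb, in 2.5 kb bins and over the other marks. It was also 0 without chromosome 12, by chromosome and at a 2-fold difference. Of the windows 6.96% were higher at 1.2-fold, 2.85% by chromosome and 0.971% at 2-fold. Beyond the settings' own construction the cause of these changes was not tested. Depth limits single 1 kb bins, where the H3K27me3 mean was 4.42 reads. No paired analysis was possible because each group had 1 library and no test was made.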

Other observations

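Chromosome X was outside the rule. Judged by the autosomal mean of the H3K27me3 library, 393 of its 28673 bins (1.37%) reached 2-fold, the longest run was 40 kb, and no run reached 50 kb. Its mean was 0.378-fold of the autosomal mean, and how many X chromosomes the cells carried was not given.

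With 1 bin under the threshold allowed inside a run, neighbouring domains joined into longer stretches. After the 725 kb stretch on chromosome 8, the longest were 515 kb of chromosome 5 from 35350001 to 35865000, made of 5 long domains and runs between them at a mean of 4.28-fold, and 505 kb of chromosome 9 from 61200001 to 61705000, with 3 long domains at 3.44-fold. A stretch of 480 kb on chromosome 12 from 112525001 to 113005000 joined 3 long domains at 4.85-fold H3K27me3 and 0.892-fold H3K4me3, with 2.63-fold MEF H3K9me3 and 2.55-fold secondary MEF H3K9me3.

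After the domain of chromosome 11 near the first mapped bins, the highest MEF H3K9me3 mean of a domain was on chromosome 1 from 90040001 to 90100000, at 6.78-fold, with 5.91-fold in secondary MEF, 4.84-fold H3K27me3 and 2.25-fold H3K4me3.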
